A study of Homo sapiens with 24 samples.

Results

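This account covers 42 genes for chaperones of the endoplasmic reticulum (ER) and for heat shock chaperones. They were chosen by gene symbol from the 58266 symbols of the deposited tables, with earlier results of these data known. All 42 had a value in every one of the 24 libraries, and all 42 passed the filter on low values. They were grouped by role into 10 genes of the ER HSP70 and HSP90 system, 6 ER lectins and disulfide isomerases, 7 sensors of the unfolded protein response and genes of ER-associated degradation, 15 cytosolic and nuclear heat shock chaperones, 3 mitochondrial chaperones and 1 secreted chaperone.

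The libraries came from HEK293A, an adherent human embryonic kidney cell line, grown in serum-containing medium on hydrogels with a fibronectin coating. The gels were soft (1 kPa) or stiff (40 kPa), and no other treatment was given. On each gel, 3 biological replicates were sequenced of wild-type cells (WT), of RAP2A/B/C-tKO cells (knockout of the small GTPases RAP2A, RAP2B and RAP2C), of LATS1/2-dKO cells (knockout of the Hippo kinases LATS1 and LATS2) and of YAP/TAZ-dKO cells (knockout of the coactivators YAP, gene YAP1, and TAZ, gene WWTR1, which those kinases restrain). The study asked how expression changes with matrix stiffness. The editing method and the number of clones per line are not stated in the labels, so an effect of genotype and one of the clone cannot be told apart. Nothing says whether replicates came from separate thaws or gels, so the p-values measure the spread between these libraries.

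Chaperones bind unfolded proteins and help them reach their native form. In the cytosol this is done by HSP70 and HSP90 proteins with their J-domain and nucleotide exchange partners, whose genes are driven by the heat shock factor HSF1 when unfolded protein builds up. In the ER the HSP70 protein BiP (gene HSPA5) works with the HSP90 protein GRP94 (gene HSP90B1), lectins and disulfide isomerases. Unfolded protein in the ER activates the sensors IRE1 (gene ERN1), ATF6 and PERK, which raise ER chaperone genes through the transcription factors XBP1, ATF6 and ATF4. Proteins that fail to fold are passed back to the cytosol and degraded.

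The response elements of these pathways stand in the promoters of several of the 42 genes, and they are shown for 5 genes whose levels are described further on. RefSeq promoter windows of 300 bases (250 before the start site and 50 after, build GRCh38.p14) matched 39 of the 42 genes. On both strands these were searched for the ER stress element (CCAAT, any 9 bases, CCACG), its second form (ATTGG, any 1 base, CCACG), the unfolded protein response element TGACGTGG and the heat shock element (3 alternating units of GAA and TTC, with any 2 bases between units). The 250 bases before the start site follow, 5′ to 3′ along the gene's strand, with the matches in capitals.
HSPA5, minus strand, chr9:125241344-125241593: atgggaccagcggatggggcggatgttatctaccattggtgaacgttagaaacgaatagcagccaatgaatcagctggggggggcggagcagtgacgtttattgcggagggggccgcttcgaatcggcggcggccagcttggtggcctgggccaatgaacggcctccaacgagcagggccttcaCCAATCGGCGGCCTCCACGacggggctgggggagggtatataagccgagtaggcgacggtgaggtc
HSP90B1, plus strand, chr12:103930160-103930409: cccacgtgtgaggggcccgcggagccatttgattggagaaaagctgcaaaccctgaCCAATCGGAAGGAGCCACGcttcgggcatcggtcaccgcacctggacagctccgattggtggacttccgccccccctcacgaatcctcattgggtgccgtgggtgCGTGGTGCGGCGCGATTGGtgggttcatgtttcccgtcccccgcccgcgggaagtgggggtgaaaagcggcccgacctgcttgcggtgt
XBP1, minus strand, chr22:28800570-28800819: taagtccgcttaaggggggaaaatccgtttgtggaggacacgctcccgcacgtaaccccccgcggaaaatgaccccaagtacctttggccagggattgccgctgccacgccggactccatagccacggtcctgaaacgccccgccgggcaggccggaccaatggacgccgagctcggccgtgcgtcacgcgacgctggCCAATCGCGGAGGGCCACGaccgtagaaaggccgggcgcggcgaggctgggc
HYOU1, minus strand, chr11:119057206-119057455: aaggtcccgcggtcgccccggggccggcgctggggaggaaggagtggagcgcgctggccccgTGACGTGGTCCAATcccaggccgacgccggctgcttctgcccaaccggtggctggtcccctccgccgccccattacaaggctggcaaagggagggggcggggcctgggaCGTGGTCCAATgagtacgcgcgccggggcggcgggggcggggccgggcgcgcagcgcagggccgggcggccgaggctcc
HSPA8, minus strand, chr11:123062137-123062386: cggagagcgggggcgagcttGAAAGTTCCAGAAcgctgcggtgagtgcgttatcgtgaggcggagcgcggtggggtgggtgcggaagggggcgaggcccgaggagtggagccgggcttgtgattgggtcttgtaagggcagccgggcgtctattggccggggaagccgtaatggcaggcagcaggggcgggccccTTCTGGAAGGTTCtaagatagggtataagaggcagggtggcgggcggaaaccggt

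Counting from the start site, the ER stress element began at position -66 in HSPA5, at -194 and -89 in HSP90B1 and at -52 in XBP1. CRELD2 (-80), CALR (-225) and CANX (-151) also held it, which made 6 of 39 genes (15.4%) against 0.0769% of all 35116 promoters. The second form stood at -185 and -79 in HYOU1, at -188 in SDF2L1 and at -117 in HERPUD1 (7.69% of the 39, against 0.0541% of all). The first of the HYOU1 matches overlapped an unfolded protein response element at -188, the single member match to that element (2.56%, against 0.729% of all). Heat shock elements were found at -230 and -55 in HSPA8 and at 4 in DNAJA1 (5.13%, against 0.490% of all). HSPA1A, HSPA1B, HSP90AA1, HSPH1, HSPB1, DNAJB1 and BAG3 were among the genes with no heat shock element match. Each member was read in the first promoter listed for its symbol, while the shares of all count every promoter. The genes were chosen for their roles in these pathways, so the shares are a description and not a test. These are matches of letters within the windows and do not show that a factor was bound. A missing match does not show that an element is absent.

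Levels were FPKM values, read fragments scaled to transcript length and library depth, and tests were run on log2(FPKM + 1) with limma over all 15828 genes past the filter. A gene was called where the p-value adjusted by the Benjamini-Hochberg method was below 0.05. The authors' deposited confidence intervals of members at or above 5 FPKM had a median half-width of 5.16% of the value (1.28% to 29.3%), with medians per library between 4.61% and 5.85%. The library RAP2A/B/C-tKO on 40 kPa replicate 3 and the library LATS1/2-dKO on 40 kPa replicate 1 stood apart. Their deviations from the mean of the remaining replicates of their group ran with GC content across genes. The rank correlation was -0.614 and -0.588, against -0.354 to 0.319 in the 18 libraries of the other 6 groups. In the pair that stood apart, the median member lay 0.23 and 0.07 above the mean of the remaining replicates on the log2 scale. YAP1 and WWTR1 were lower in YAP/TAZ-dKO (log2 difference -2.18 and -1.29) and LATS1 in LATS1/2-dKO (-1.08). RAP2A was lower in RAP2A/B/C-tKO (-0.31), while LATS2, RAP2B and RAP2C were not lower in their lines (0.32, 0.26 and 0.17), and RNA of an edited gene can persist. Of the markers of this line, VIM, KRT8, KRT18, CDH2 and NEFL were at 10.7 FPKM or more in every library. The kidney gene PAX2, also chosen to be present, reached 1.30 FPKM at most. Of the markers of other cell types, PTPRC, CD3E, CDH5 and DCN were at or below 0.0641 FPKM and ALB at or below 0.983. The fibroblast gene COL1A1, chosen to be absent, was between 3.31 and 7.88 FPKM. The endothelial gene PECAM1, chosen to be absent too, was not among the symbols kept.

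In WT cells the chaperone genes spanned a wide range of levels per length. HSPA8, the constitutive cytosolic HSP70, was the most abundant with a mean of 1371 FPKM over 6 libraries, followed by the secreted chaperone CLU (976) and the ER lectin CALR (909), whose libraries overlapped (876 to 1068 and 775 to 982 FPKM). HSP90AA1 (894) overlapped CALR in turn. In all, 10 members had a WT mean of at least 500 FPKM and 10 one under 20, among them the sensors ATF6 (13.4) and ERN1 (3.21). The lowest was the stress-inducible HSPA1A (2.99), set against 149 FPKM for its near-identical copy HSPA1B. Across the 8 groups, 22 members kept their highest and lowest group means within 1.5 times of each other. In 7 members they were more than 2 times apart, in HSPA1A, CLU, HSPB1, HSPA8, SDF2L1, DNAJB4 and HSPA4.

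**Figure D1:**
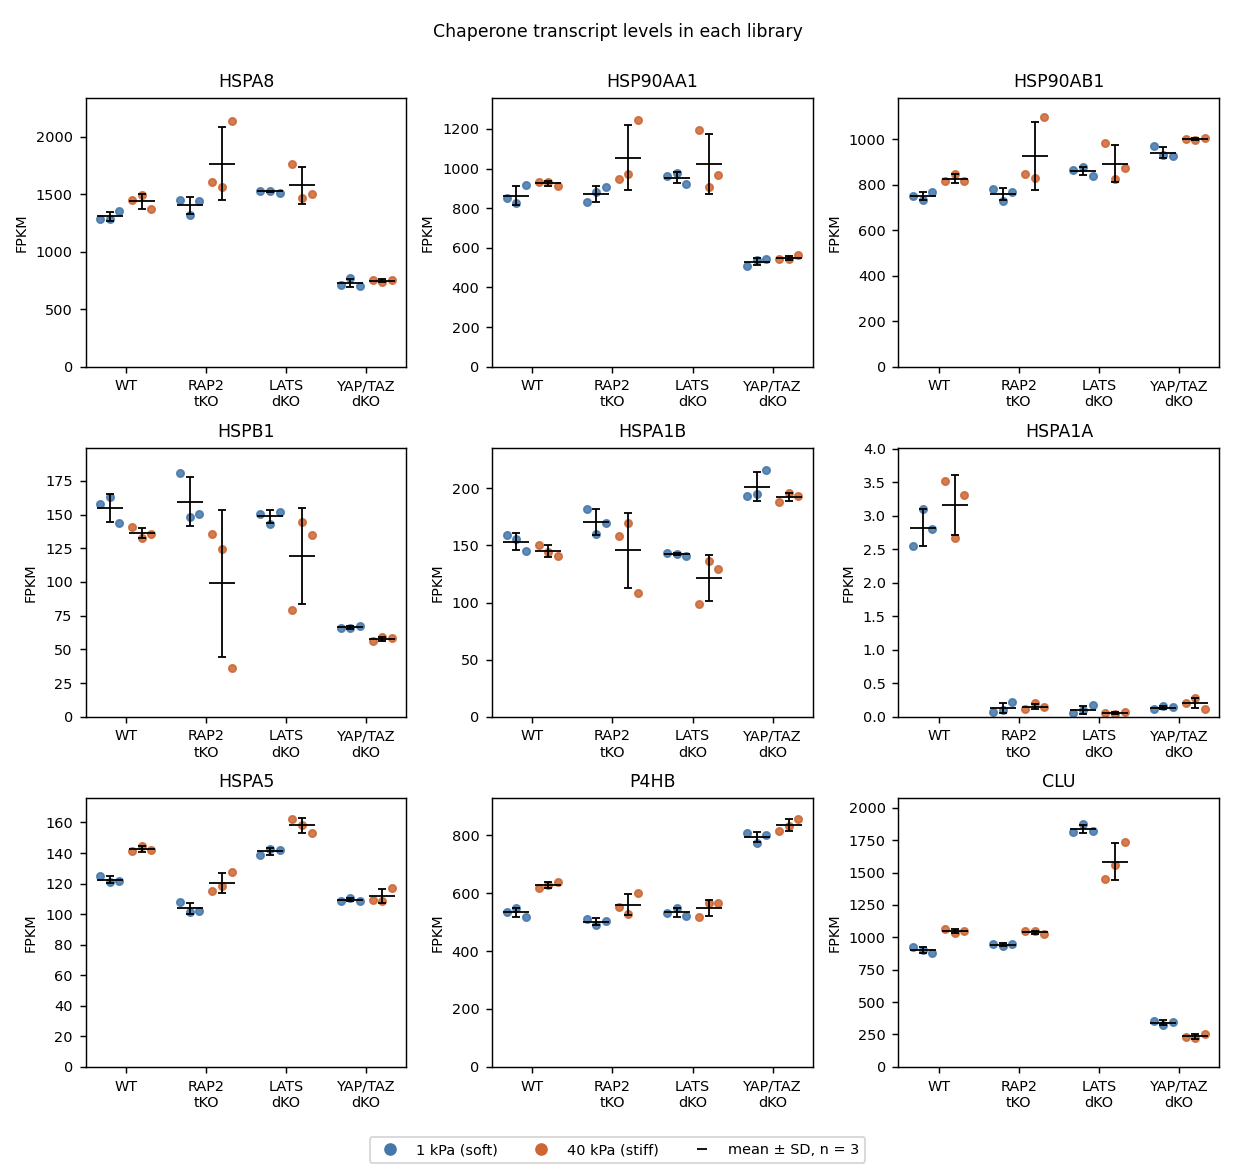
Transcript levels of 9 chaperone genes in every library (y axis, FPKM) by genotype, with soft (1 kPa) and stiff (40 kPa) gels in blue and orange; bars give the mean ± SD of 3 libraries. HSPA8, HSP90AA1, HSPB1 and CLU were lower in all 6 YAP/TAZ-dKO libraries than in the 6 WT libraries, and HSPA1A was at or below 0.277 FPKM in the 18 knockout libraries.

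Few of these genes were called between soft and stiff gels. In WT cells 3 of 42 rose on the stiff gel and 0 fell, against 0.986% of all genes called (0.322% higher and 0.663% lower): HSPA5 and the disulfide isomerases PDIA4 and P4HB. Within RAP2A/B/C-tKO cells HSPA5 and the cytosolic J-domain protein gene DNAJB4 rose (2 of 42, against 3.87% of all genes, 0.986% higher and 2.88% lower). DNAJC9, a J-domain protein that chaperones histones, rose in LATS1/2-dKO cells (1 of 42, against 0.708%, 0.0885% higher and 0.619% lower). In YAP/TAZ-dKO cells CLU fell (1 of 42, against 0.347%, 0.12% higher and 0.227% lower). Called or not, most members lay on the positive side: 32 of 42 in WT with a median log2 difference of 0.09, where 6305 of 15828 genes were positive and the median was -0.03. The counts were 32, 29 and 26 of 42 in the RAP2A/B/C-tKO, the LATS1/2-dKO and the YAP/TAZ-dKO cells, with medians of 0.15, 0.04 and 0.03 (all genes -0.04, -0.03 and -0.01). The RAP2A/B/C-tKO median includes the stiff-gel library that stood apart, whose median member lay 0.23 above the remaining replicates. These counts and medians are not given without the libraries that stood apart. Without both libraries that stood apart, 12 members were called in WT (11 higher, 1 lower), 6 in RAP2A/B/C-tKO (4 and 2), 2 in LATS1/2-dKO and 3 in YAP/TAZ-dKO (2 and 1). The share of all genes called rose as well, to 6.42% (2.34% higher and 4.08% lower), 5.05%, 3.04% and 2.46%. Neither library left out is from WT or YAP/TAZ-dKO, but in the fit all groups share the estimate of each gene's spread.

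**Figure D2:**
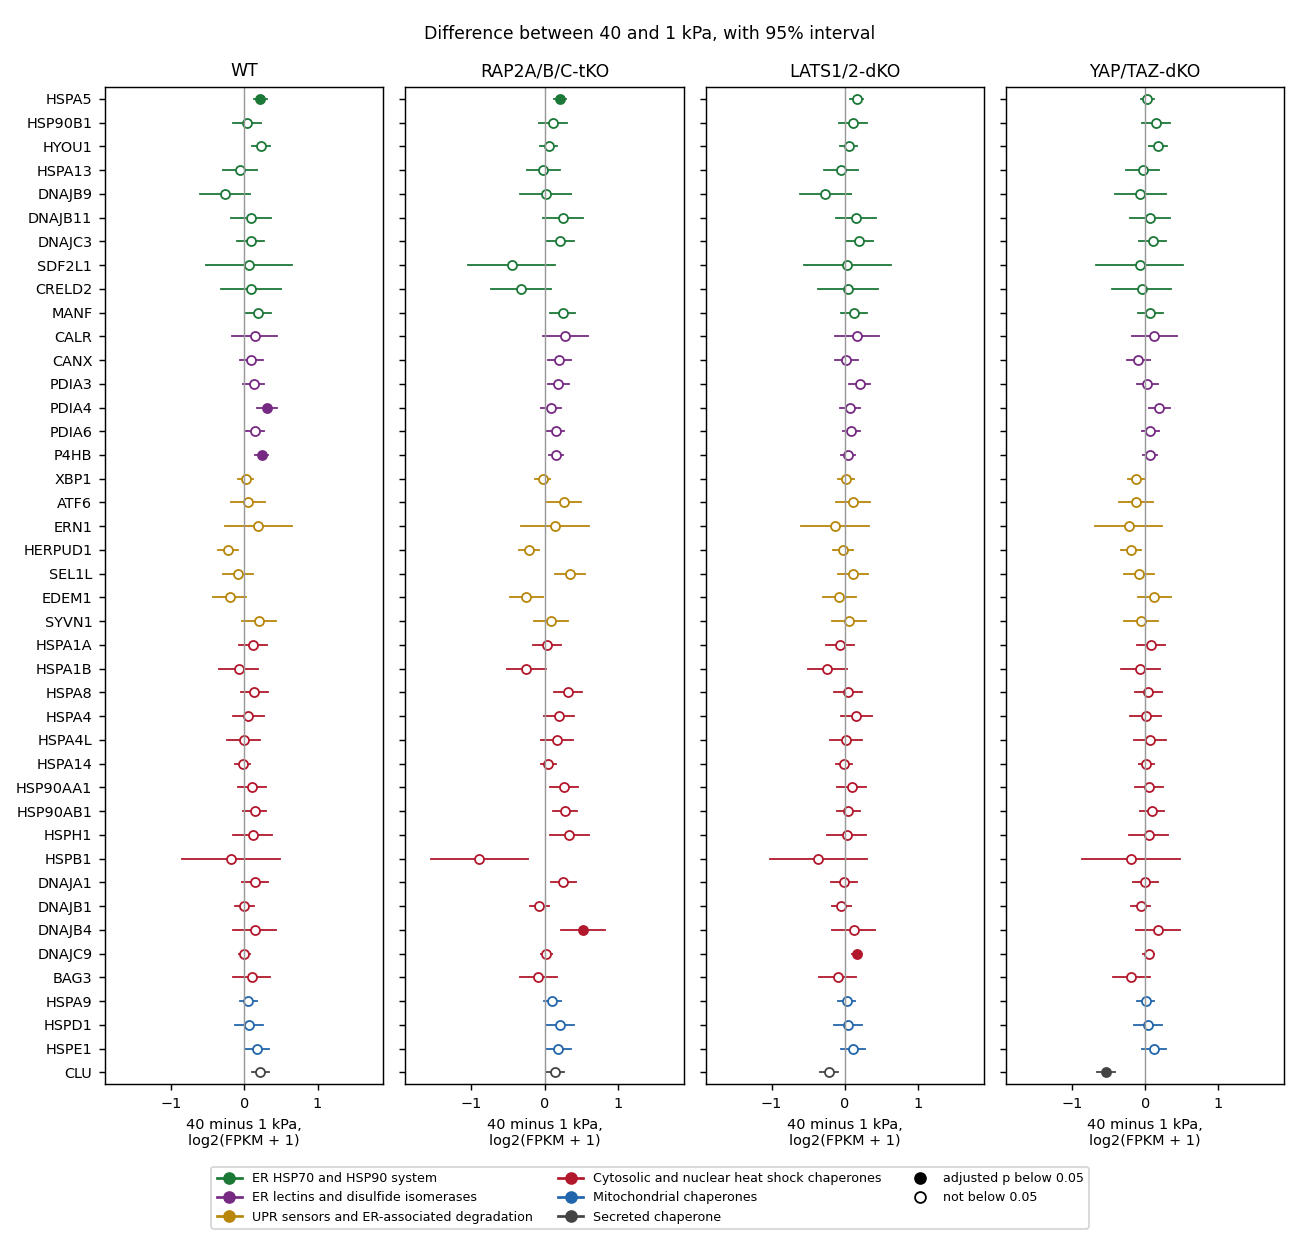
Difference between stiff and soft gel for each of the 42 genes (x axis, log2 scale) in the 4 genotypes, with 95% intervals from limma, coloured by role; filled points have an adjusted p below 0.05. The 7 filled points are HSPA5, PDIA4 and P4HB in WT, HSPA5 and DNAJB4 in RAP2A/B/C-tKO, DNAJC9 in LATS1/2-dKO and CLU in YAP/TAZ-dKO.

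Between lines the differences were larger. All 3 comparisons use the same 6 WT libraries, so their values are given side by side and do not support each other. In the RAP2A/B/C-tKO line 4 members were higher than in WT and 11 lower (15 of 42, against 16% of all genes called, 7.4% higher and 8.57% lower), and 6 of the 10 genes of the ER HSP70 and HSP90 system were among them, 5 of them lower. In LATS1/2-dKO 14 members were higher and 5 lower (19 of 42, against 33.9%, 16% higher and 17.8% lower). In YAP/TAZ-dKO 12 were higher and 17 lower (29 of 42, against 50.6%, 23.6% higher and 27% lower), with 4 of 6 ER lectins and isomerases higher and 0 lower, and 7 of 15 cytosolic chaperones lower and 4 higher. The members' median log2 differences were -0.02, 0.03 and -0.04 (all genes 0.00, -0.01 and 0.00). Each count of lower members includes HSPA1A, which passed the filter through WT alone. Without both libraries that stood apart, 22, 27 and 35 members were called in the RAP2A/B/C-tKO, the LATS1/2-dKO and the YAP/TAZ-dKO cells, against 27.8%, 42.7% and 61.6% of all genes.

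**Figure D3:**
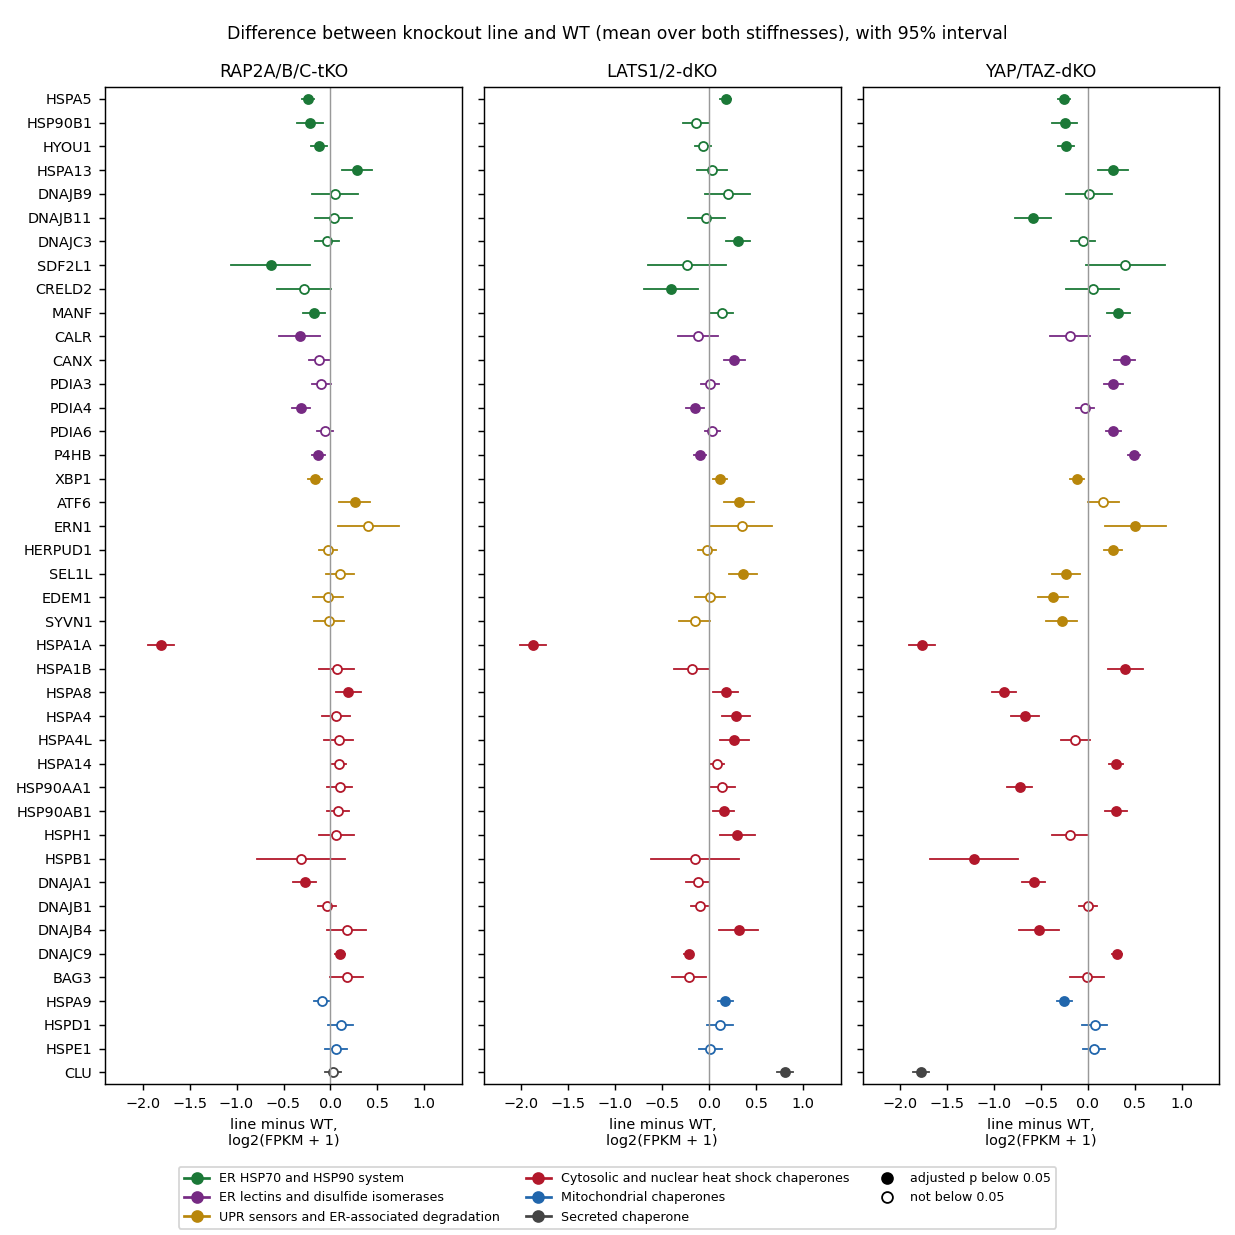
Difference between each knockout line and WT, as the mean over both stiffnesses, for the 42 genes (x axis, log2 scale), with 95% intervals from limma, coloured by role; filled points have an adjusted p below 0.05. HSPA1A lies between -1.88 and -1.77 in the 3 lines. It passed the filter through WT alone, so its filled points and intervals are not to be read as a test. CLU lies at 0.81 in LATS1/2-dKO and -1.78 in YAP/TAZ-dKO.

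HSPA5 (ENSG00000044574.7, chromosome 9, 127997132 to 128003609; all loci hg19), the ER HSP70 protein BiP, had 125, 121 and 122 FPKM in the WT libraries on 1 kPa and 141, 145 and 142 on 40 kPa. The groups did not overlap, and HSPA5 rose by 0.22 on the log2 scale (SE 0.04, adjusted p = 0.0135). In RAP2A/B/C-tKO it had 108, 102 and 102 FPKM on 1 kPa and 115, 118 and 128 on 40 kPa. This was again without overlap and a rise (0.21, SE 0.04, adjusted p = 0.00798). In LATS1/2-dKO the values were 139, 143 and 142 FPKM (1 kPa) and 163, 159 and 153 (40 kPa), in YAP/TAZ-dKO 109, 111 and 109 FPKM (1 kPa) and 109.6, 109 and 117 (40 kPa). In LATS1/2-dKO the groups were again apart, in YAP/TAZ-dKO they overlapped, and the differences of 0.16 and 0.03 were not called (adjusted p = 0.0867 and 0.922). The stiffness response of YAP/TAZ-dKO less that of WT was -0.19 (95% interval -0.31 to -0.06, adjusted p = 0.251), and it was called at -0.19 without both libraries that stood apart. Between lines, HSPA5 was lower than WT in RAP2A/B/C-tKO (-0.24, adjusted p = 1.43e-05), higher in LATS1/2-dKO (0.17, adjusted p = 1.30e-04) and lower in YAP/TAZ-dKO (-0.26, adjusted p = 7.35e-07). The stiffness call in WT was lost without WT on 1 kPa replicate 2 or 3 and without WT on 40 kPa replicate 2 or 3 (adjusted p up to 0.0812), and when the 6 WT libraries were fitted alone (adjusted p = 0.055). Within RAP2A/B/C-tKO it was lost only in the fit of its own 6 libraries alone (adjusted p = 0.453).

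HSPA5's partners were called in different lines, and the knockout lines were not tested against each other. GRP94 (HSP90B1), which folds secreted and membrane proteins, stood at 799.8 ± 35.0 and 820.4 ± 11.0 FPKM in WT (1 and 40 kPa; mean ± SD, n = 3, here and below). It was lower in RAP2A/B/C-tKO (671 ± 21.5 and 729 ± 87.2; log2 difference -0.21, adjusted p = 0.0299) and in YAP/TAZ-dKO (649 ± 11.3 and 717 ± 23.3; -0.25, adjusted p = 0.00368). HYOU1, a nucleotide exchange factor for BiP, was also lower in these 2 lines (-0.12 and -0.24, adjusted p = 0.0414 and 5.97e-05). HSPA13, a microsomal HSP70-like protein, was higher in both (0.28 and 0.26, adjusted p = 0.015 and 0.00733). In LATS1/2-dKO the differences of HSP90B1, HYOU1 and HSPA13 were -0.14, -0.07 and 0.03, and 0 of the 3 were called. The HSP90B1 values in that line were 717, 710 and 697 FPKM (1 kPa) and 940, 664 and 712 (40 kPa). All lay below the lowest WT library, at 772, except the 940 of the library that stood apart. DNAJC3, a J-domain cofactor of BiP, was higher in LATS1/2-dKO (7.59 ± 0.307 and 8.88 ± 1.12 FPKM, with 6.23 ± 0.262 and 6.67 ± 0.0973 in wild-type cells; 0.30, adjusted p = 7.71e-04). MANF, a secreted ER protein that binds BiP, was lower in RAP2A/B/C-tKO (-0.18, adjusted p = 0.0438) and higher in YAP/TAZ-dKO (0.32, adjusted p = 1.15e-04). Leaving out single libraries or changing the processing ended the calls in RAP2A/B/C-tKO of HSP90B1 in 8 of 19 settings, HYOU1 and MANF in 12 each and HSPA13 in 1. DNAJB9, a J-domain protein of the ER that works with BiP, was called in 0 of the 10 contrasts.

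DNAJB11 (ENSG00000090520.10, chromosome 3, 186285192 to 186314992), another J-domain cofactor of BiP, had 113, 97.9 and 121 FPKM in WT on 1 kPa and 115, 118 and 117 on 40 kPa. In YAP/TAZ-dKO it had 74.8, 69.1 and 76.4 on 1 kPa and 73.4, 76.9 and 80.6 on 40 kPa. All 6 libraries of that line were below all 6 of WT, and DNAJB11 fell by 0.59 on the log2 scale (SE 0.09, adjusted p = 3.07e-05). The RAP2A/B/C-tKO libraries had 104, 106 and 108 FPKM (1 kPa) and 118, 117 and 148 (40 kPa). LATS1/2-dKO had 112, 106 and 98.5 FPKM (1 kPa) and 157, 93.8 and 109 (40 kPa). Both overlapped WT, with the highest value of each line in the library that stood apart, and their differences of 0.03 and -0.03 were not called (adjusted p = 0.861 and 0.851).

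SDF2L1 (ENSG00000128228.4, chromosome 22, 21996550 to 21998587), an ER protein in complexes with BiP and J-domain proteins, had 27.7, 29.1 and 24.7 FPKM in WT on 1 kPa and 29.3, 26.8 and 29.1 on 40 kPa. In the RAP2A/B/C-tKO line it had 23.8, 18.7 and 19.6 on 1 kPa and 19.7, 20.1 and 8.06 on 40 kPa. All 6 were below all 6 of WT, the lowest being the library that stood apart. The log2 difference was -0.64 (SE 0.20, adjusted p = 0.0354). It lost its call without that library (value -0.44, the one nearest to 0 among the settings) and in 9 other settings (adjusted p up to 0.0771). LATS1/2-dKO held 23.98, 21.9 and 23.5 FPKM on the soft gel and 13.6, 37.6 and 25.5 on the stiff gel, the first of the stiff-gel values in the library that stood apart, and was not called (-0.24, adjusted p = 0.393). YAP/TAZ-dKO held 34.6, 39.5 and 39.9 FPKM (1 kPa) and 35.4, 33.9 and 38.4 (40 kPa), above WT in all 6 libraries, a difference of 0.40 that was not called (adjusted p = 0.106).

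CRELD2 (ENSG00000184164.14, chromosome 22, 50311815 to 50321188), an ER-resident protein induced by ER stress, had 32.8, 34.8 and 34.3 FPKM in WT on 1 kPa and 37.7, 35.0 and 36.2 on 40 kPa. In LATS1/2-dKO it had 22.0, 29.4 and 26.6 FPKM (1 kPa) and 18.2, 34.2 and 30.2 (40 kPa). Of the 6 LATS1/2-dKO libraries, 5 lay below the lowest WT value and replicate 2 on the stiff gel lay within the WT range. CRELD2 was lower in that line (-0.41, SE 0.14, adjusted p = 0.0267), a call lost in 5 of 19 settings, among them without LATS1/2-dKO on 40 kPa replicate 1. Values in RAP2A/B/C-tKO were 34.3, 32.1 and 30.2 FPKM (1 kPa) and 30.1, 31.8 and 17.4 (40 kPa), and YAP/TAZ-dKO 35.2, 37.0 and 38.9 FPKM (1 kPa) and 34.1, 35.3 and 37.8 (40 kPa). Their differences of -0.28 and 0.05 were not called (adjusted p = 0.181 and 0.793).

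Among the ER lectins and disulfide isomerases, P4HB (ENSG00000185624.14, chromosome 17, 79801035 to 79818570), protein disulfide isomerase and a subunit of prolyl 4-hydroxylase, had 536, 548 and 518 FPKM in WT on 1 kPa and 619.6, 628 and 638 on 40 kPa. The groups were apart and P4HB rose by 0.24 with stiffness (SE 0.05, adjusted p = 0.0135), a call lost without WT on 1 kPa replicate 3 and without WT on 40 kPa replicate 2 or 3 (adjusted p up to 0.0931), and in the fit of the 6 WT libraries alone (0.0524). YAP/TAZ-dKO had 808, 774 and 803 FPKM (1 kPa) and 815, 833 and 857 (40 kPa). All 6 of these were above every WT library, and P4HB was higher by 0.49 (SE 0.03, adjusted p = 3.45e-10). The libraries of RAP2A/B/C-tKO held 511, 490.0 and 505 FPKM (1 kPa) and 552, 529 and 599.6 (40 kPa) and LATS1/2-dKO 532, 549 and 520.4 FPKM (1 kPa) and 517, 565 and 566 (40 kPa). Both lines lay slightly below WT (-0.13 and -0.10, adjusted p = 0.00925 and 0.023) and overlapped it, and the call in LATS1/2-dKO was lost in 4 of 19 settings (adjusted p up to 0.0597).

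PDIA4 (ENSG00000155660.10, chromosome 7, 148700154 to 148725733), another disulfide isomerase, had 99.6, 96.6 and 93.4 FPKM in WT on 1 kPa and 119.7, 119 and 122 on 40 kPa. It rose without overlap (0.31, SE 0.07, adjusted p = 0.0257), a call lost without WT on 1 kPa replicate 2 or 3 and without any 1 of the WT libraries on 40 kPa (adjusted p up to 0.133). In the other lines the stiffness differences were 0.09, 0.07 and 0.19, with 0 called. The difference of these responses from that of WT was -0.23, -0.24 and -0.12 (adjusted p = 0.748, 0.417 and 0.831), so a difference between lines in the response was not shown. Averaged over the gels, PDIA4 was lower than WT in RAP2A/B/C-tKO and LATS1/2-dKO (-0.31 and -0.15, adjusted p = 1.23e-04 and 0.0191). The lectin CANX, which holds glycoproteins while they fold, was higher in LATS1/2-dKO and YAP/TAZ-dKO (0.27 and 0.39, adjusted p = 7.02e-04 and 5.72e-06), with 738 ± 7.89 and 788 ± 37.8 FPKM in WT and 1033 ± 15.95 and 968 ± 24.4 in YAP/TAZ-dKO. Its soluble counterpart CALR was lower in RAP2A/B/C-tKO (-0.33, adjusted p = 0.0345) and lost the call in 10 of 19 settings. PDIA3, which acts with both lectins, and PDIA6 were higher in YAP/TAZ-dKO (both 0.27, adjusted p = 1.10e-04 and 1.26e-05).

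The sensors and the degradation genes were less abundant. XBP1 (ENSG00000100219.16, chromosome 22, 29190543 to 29196585), whose mRNA is spliced by IRE1 to encode a transcription factor, had 60.3, 56.7 and 57.0 FPKM in WT on 1 kPa and 57.0, 60.6 and 58.8 on 40 kPa. RAP2A/B/C-tKO had 52.9, 50.6 and 53.5 FPKM (1 kPa) and 50.2, 47.7 and 56.4 (40 kPa), LATS1/2-dKO 63.2, 63.1 and 63.3 FPKM (1 kPa) and 63.8, 63.1 and 64.4 (40 kPa), and YAP/TAZ-dKO 58.5, 56.1 and 54.2 FPKM (1 kPa) and 51.0, 50.9 and 52.5 (40 kPa). All 6 LATS1/2-dKO libraries were above all 6 of WT, all 6 of RAP2A/B/C-tKO were below, and YAP/TAZ-dKO was below WT on the stiff gel and overlapped it on the soft gel. The differences were small, at -0.17, 0.12 and -0.12 (adjusted p = 0.00256, 0.0143 and 0.0101), and gene values do not show how much XBP1 was spliced. ATF6, the sensor that is cleaved in the Golgi, was higher in RAP2A/B/C-tKO and LATS1/2-dKO (0.26 and 0.32, adjusted p = 0.028 and 0.00344), and the first of these calls was lost in 8 of 19 settings.

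ERN1 (ENSG00000178607.15, chromosome 17, 62116502 to 62208179), which encodes IRE1, had 3.38, 2.59 and 2.68 FPKM in WT on 1 kPa and 2.71, 2.80 and 5.11 on 40 kPa. In YAP/TAZ-dKO it had 4.64, 5.89 and 5.56 FPKM (1 kPa) and 4.42, 3.81 and 5.11 (40 kPa), above all WT libraries but replicate 3 on 40 kPa, and was higher by 0.51 (SE 0.15, adjusted p = 0.0104). The RAP2A/B/C-tKO libraries had 2.60, 5.46 and 5.03 FPKM (1 kPa) and 4.30, 4.80 and 5.13 (40 kPa), and LATS1/2-dKO 3.54, 4.64 and 5.49 FPKM (1 kPa) and 4.89, 4.40 and 2.95 (40 kPa). These lay 0.40 and 0.35 from WT and were not called (adjusted p = 0.0877 and 0.0945). Of the degradation genes, SEL1L, the adaptor of the ubiquitin ligase SYVN1 (HRD1), was higher in LATS1/2-dKO (0.36, adjusted p = 4.83e-04) and lower in YAP/TAZ-dKO (-0.23, adjusted p = 0.00942). SYVN1 itself and EDEM1, which marks misfolded glycoproteins for degradation, were lower in YAP/TAZ-dKO (-0.28 and -0.37, adjusted p = 0.00594 and 4.59e-04). HERPUD1, an ER stress-induced partner of that ligase, was higher there (82.6 ± 3.56 and 72.0 ± 1.73 FPKM, with 69.4 ± 3.60 and 59.2 ± 1.97 in wild-type cells; 0.26, adjusted p = 8.57e-05).

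Of the 15 cytosolic chaperones, 11 were called in YAP/TAZ-dKO, against 50.6% of all genes. The 11 include HSPA1A, which passed the filter through WT alone. HSPA8 (ENSG00000109971.13, chromosome 11, 122928197 to 122933938) had 1285, 1282 and 1349 FPKM in WT on 1 kPa and 1449, 1494 and 1366 on 40 kPa. In YAP/TAZ-dKO it had 707, 768 and 703 FPKM (1 kPa) and 756, 736 and 749.5 (40 kPa). The highest of these was below the lowest WT library, and HSPA8 fell by 0.89 (SE 0.06, adjusted p = 9.48e-10). Values in RAP2A/B/C-tKO were 1445, 1317 and 1439 FPKM (1 kPa) and 1602, 1557 and 2131 (40 kPa), the last in the library that stood apart, and LATS1/2-dKO 1529.6, 1524 and 1513 FPKM (1 kPa) and 1759.5, 1463 and 1503 (40 kPa). HSPA8 was higher than WT in both lines (0.19 and 0.18, adjusted p = 0.0452 and 0.0375). These calls were lost in 12 and 9 of 19 settings, with adjusted p up to 0.125 and 0.104, and the difference in RAP2A/B/C-tKO came to 0.12 without its library that stood apart (adjusted p = 0.0622).

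HSP90AA1 (ENSG00000080824.18, chromosome 14, 102547075 to 102606036), the stress-responsive cytosolic HSP90, had 851, 824 and 916 FPKM in WT on 1 kPa and 931, 931 and 913 on 40 kPa. In YAP/TAZ-dKO it had 510.3, 540.2 and 541 FPKM (1 kPa) and 542, 541 and 563 (40 kPa). All 6 lay far below WT, a fall of 0.73 (SE 0.06, adjusted p = 2.45e-08). The libraries of RAP2A/B/C-tKO held 829, 883 and 906 FPKM (1 kPa) and 947, 974 and 1243 (40 kPa), and LATS1/2-dKO 964, 975.2 and 923 FPKM (1 kPa) and 1196, 905 and 967 (40 kPa). Both overlapped WT, with differences of 0.10 and 0.14 that were not called (adjusted p = 0.352 and 0.106). Its constitutive paralog HSP90AB1 went the other way in YAP/TAZ-dKO, with 941 ± 25.1 and 999.8 ± 3.75 FPKM where WT had 749.9 ± 18.5 and 827 ± 18.1 (0.30, adjusted p = 1.44e-04). HSP90AA1 made up 53.5% ± 0.758 and 52.8% ± 0.499 of the summed FPKM of the pair in WT (1 and 40 kPa). The share was between 51.5% and 54.9% in every RAP2A/B/C-tKO and LATS1/2-dKO library, and 36.1% ± 1.37 and 35.4% ± 0.420 in YAP/TAZ-dKO. The highest YAP/TAZ-dKO library, at 36.9%, was below the lowest WT library, at 52.3%. Since both genes are read in the same library, this share does not depend on the scaling between libraries. The summed level of the pair was 1471 ± 7.55 and 1549 ± 15.6 FPKM in YAP/TAZ-dKO, against 1614 ± 65.4 and 1752 ± 24.7 in WT.

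**Figure D4:**
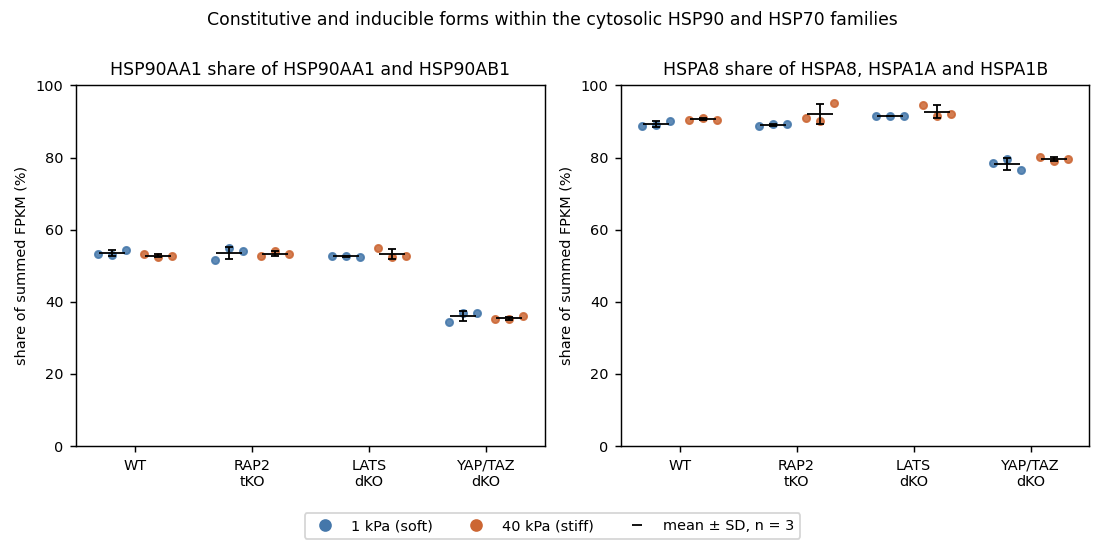
Share of HSP90AA1 in the summed FPKM of HSP90AA1 and HSP90AB1 (left) and of HSPA8 in that of HSPA8, HSPA1A and HSPA1B (right), in percent, in every library by genotype and stiffness, with mean ± SD of 3 libraries. The YAP/TAZ-dKO libraries lie at 34.5% to 36.9% on the left and 76.5% to 80.0% on the right, below all other libraries.

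HSPA4 (ENSG00000170606.13, chromosome 5, 132387654 to 132442141), an HSP110-type exchange factor for HSP70, had 239, 237 and 254 FPKM in WT on 1 kPa and 257, 252 and 249.1 on 40 kPa. YAP/TAZ-dKO had 155, 156 and 154 FPKM (1 kPa) and 162, 151 and 154 (40 kPa), without overlap and lower than WT (-0.67, SE 0.07, adjusted p = 2.22e-07). LATS1/2-dKO had 289, 290.0 and 283 FPKM (1 kPa) and 388, 294 and 287 (40 kPa), all above the WT libraries (0.29, adjusted p = 0.00361). RAP2A/B/C-tKO had 245, 236 and 246 FPKM (1 kPa) and 252, 250.4 and 338 (40 kPa), overlapping WT (0.06, adjusted p = 0.619). The related HSPA4L and HSPH1 were also higher in LATS1/2-dKO (0.27 and 0.30, adjusted p = 0.00902 and 0.0144), and their differences in YAP/TAZ-dKO of -0.14 and -0.20 were not called.

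DNAJA1 (ENSG00000086061.15, chromosome 9, 33025209 to 33039905), a J-domain protein that delivers clients to HSP70, had 183, 173 and 181 FPKM in WT on 1 kPa and 191, 210.4 and 192 on 40 kPa. In YAP/TAZ-dKO it had 122, 130.2 and 124 FPKM (1 kPa) and 127, 125 and 126 (40 kPa), all below WT (-0.58, SE 0.06, adjusted p = 1.41e-07). In RAP2A/B/C-tKO it had 142, 137 and 148 FPKM (1 kPa) and 162, 153 and 198 (40 kPa). This line was lower too (-0.27, adjusted p = 0.00322), although the library that stood apart reached the WT range. LATS1/2-dKO, with 174, 173 and 174 FPKM (1 kPa) and 199, 156 and 164 (40 kPa), was not called (-0.12, adjusted p = 0.124). DNAJB1, a J-domain partner of HSP70 and a target of HSF1, held between 41.8 and 53.5 FPKM in all 24 libraries. It was called in 0 of 10 contrasts, and its difference in YAP/TAZ-dKO had a 95% interval of -0.09 to 0.09.

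DNAJB4 (ENSG00000162616.8, chromosome 1, 78444859 to 78483648), a related J-domain protein, had 9.89, 10.3 and 11.9 FPKM in RAP2A/B/C-tKO on 1 kPa and 13.2, 14.01 and 21.0 on 40 kPa. The groups did not overlap and it was called higher (0.52, SE 0.14, adjusted p = 0.0456), the highest value being that of the library that stood apart. Without that library the difference was 0.33 and no longer called (adjusted p = 0.203), and the call was lost in 7 other settings of 13, among them without any 1 of the 3 soft-gel libraries of the line. WT had 11.5, 9.38 and 11.7 FPKM (1 kPa) and 11.8, 13.3 and 11.2 (40 kPa), LATS1/2-dKO 11.9, 15.6 and 14.2 FPKM (1 kPa) and 17.5, 14.05 and 13.96 (40 kPa), and YAP/TAZ-dKO 7.11, 7.55 and 6.75 FPKM (1 kPa) and 8.15, 7.53 and 8.92 (40 kPa). YAP/TAZ-dKO was below WT in all 6 libraries (-0.52, adjusted p = 2.35e-04), and LATS1/2-dKO was above WT on each gel (0.31, adjusted p = 0.0202), a call lost in 4 of 19 settings.

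HSPB1 (ENSG00000106211.8, chromosome 7, 75931861 to 75933612), the small heat shock protein HSP27, had 158, 163 and 144 FPKM in WT on 1 kPa and 140.5, 133 and 136 on 40 kPa. YAP/TAZ-dKO had 65.6, 65.8 and 67.6 FPKM (1 kPa) and 56.2, 59.4 and 58.1 (40 kPa), all under the lowest WT library, and HSPB1 fell by 1.22 on the log2 scale (SE 0.22, adjusted p = 1.68e-04). Within RAP2A/B/C-tKO it had 181, 148 and 150.1 FPKM (1 kPa) and 136, 125 and 36.5 (40 kPa), and in LATS1/2-dKO 151, 143 and 152 FPKM (1 kPa) and 78.8, 144 and 135 (40 kPa). The values of 36.5 and 78.8 FPKM came from the libraries that stood apart, and HSPB1, at 64.3% GC, is the member second richest in GC after SDF2L1 (65.5%). Its stiffness difference in RAP2A/B/C-tKO of -0.89 was not called (95% interval -1.56 to -0.22, adjusted p = 0.117). How much of it is due to GC content was not tested.

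HSPA1A (ENSG00000204389.9, chromosome 6, 31783241 to 31785723), a stress-inducible HSP70, had 2.55, 3.10 and 2.81 FPKM in WT on 1 kPa and 3.51, 2.66 and 3.30 on 40 kPa. The RAP2A/B/C-tKO libraries had 0.0736, 0.0971 and 0.215 FPKM (1 kPa) and 0.113, 0.200 and 0.145 (40 kPa). LATS1/2-dKO had 0.0492, 0.105 and 0.169 FPKM (1 kPa) and 0.0549, 0.0438 and 0.0705 (40 kPa), and YAP/TAZ-dKO 0.113, 0.154 and 0.146 FPKM (1 kPa) and 0.209, 0.277 and 0.121 (40 kPa). No knockout library came above 0.277 FPKM and no WT library below 2.55, and in 6 knockout libraries the deposited interval reached down to 0. HSPA1A passed the filter on low values through its 6 WT libraries alone, so it had to differ between WT and the lines. Its log2 differences of -1.80, -1.88 and -1.77 are therefore a description and are given with no test. The added 1 understates them, and with 0.1 in its place they were -3.71, -4.11 and -3.54.

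HSPA1B (ENSG00000204388.6, chromosome 6, 31795512 to 31798032), the neighbouring copy, had 159, 156 and 145 FPKM in WT on 1 kPa and 150.4, 145 and 141 on 40 kPa. Values in RAP2A/B/C-tKO were 182, 159.8 and 170.1 FPKM (1 kPa) and 159, 169.6 and 109 (40 kPa), LATS1/2-dKO 143, 143 and 141 FPKM (1 kPa) and 98.8, 137 and 129.5 (40 kPa), and YAP/TAZ-dKO 193, 195 and 216 FPKM (1 kPa) and 188, 196 and 193 (40 kPa). YAP/TAZ-dKO was above WT in all 6 libraries (0.40, SE 0.09, adjusted p = 0.001), and the other lines were not called (0.07 and -0.19, adjusted p = 0.691 and 0.117). In the GENCODE transcripts of GRCh38 the coding sequences of HSPA1A and HSPA1B, of 1926 bases each, differed at 4 bases, and the longest identical run was 1709 bases. A fragment from such a run cannot be placed in 1 copy, so the split between the copies is uncertain, and the labels do not state how such fragments were treated. HSPA1A made up 1.81% ± 0.205 and 2.13% ± 0.278 of their summed FPKM in WT and at most 0.141% in any knockout library. The sum itself was 156.2 ± 7.60 and 148.4 ± 5.10 FPKM in WT, and 201.7 ± 12.7 and 192.6 ± 3.79 in YAP/TAZ-dKO. The share of HSPA8 in these 3 HSP70 genes was 89.3% ± 0.728 and 90.6% ± 0.351 in WT and 78.2% ± 1.63 and 79.5% ± 0.543 in YAP/TAZ-dKO.

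Of the remaining cytosolic members, HSPA14, an HSP70 of the ribosome-associated complex, was higher in YAP/TAZ-dKO (0.30, adjusted p = 1.10e-06). DNAJC9 had 14.99 ± 0.302 and 16.9 ± 0.470 FPKM in LATS1/2-dKO, where it rose with stiffness (0.16, adjusted p = 0.0412). It stood at 18.7 ± 0.4002 and 18.7 ± 0.274 in WT and at 23.0 ± 0.411 and 23.9 ± 0.165 in YAP/TAZ-dKO. It was lower than WT in LATS1/2-dKO (-0.22, adjusted p = 1.36e-06) and higher in RAP2A/B/C-tKO and YAP/TAZ-dKO (0.10 and 0.31, adjusted p = 0.00869 and 6.00e-09). The stiffness call was lost in 7 of 13 settings, among them without any 1 of the LATS1/2-dKO libraries except replicate 3 on 40 kPa (adjusted p up to 0.635). BAG3, a co-chaperone that HSF1 induces, was called in 0 of 10 contrasts, with WT means of 22.9 ± 1.25 and 24.6 ± 0.889 FPKM.

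Of the mitochondrial chaperones only HSPA9 was called. HSPA9, the mitochondrial HSP70 mortalin, had 798 ± 41.6 and 828 ± 13.98 FPKM in WT, was higher in LATS1/2-dKO (907 ± 17.1 and 925 ± 20.7; 0.17, adjusted p = 0.00207) and lower in YAP/TAZ-dKO (681 ± 18.7 and 683 ± 4.66; -0.25, adjusted p = 2.60e-05). HSPD1 and HSPE1, which form the HSP60 and HSP10 chaperonin and share a promoter region, were called in 0 of 10 contrasts. Their differences in YAP/TAZ-dKO had 95% intervals of -0.06 to 0.20 and -0.05 to 0.19. The loci of 18 members, these 2 among them, overlap another gene that was tested, and without a stated strand setting reads of overlapping genes cannot be told apart.

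CLU (ENSG00000120885.19, chromosome 8, 27454434 to 27472548), a secreted chaperone that holds unfolded proteins outside the cell, had 924, 905 and 876 FPKM in WT on 1 kPa and 1068, 1034 and 1049.8 on 40 kPa. The libraries of RAP2A/B/C-tKO held 949.6, 934 and 948 FPKM (1 kPa) and 1047, 1046 and 1027 (40 kPa), within the range of the WT libraries (0.03, adjusted p = 0.737). LATS1/2-dKO had 1814, 1874 and 1817 FPKM (1 kPa) and 1452, 1560.2 and 1734 (40 kPa), all above every WT library (0.81, SE 0.04, adjusted p = 2.29e-11). YAP/TAZ-dKO had 357, 323 and 346 FPKM (1 kPa) and 228, 221 and 258 (40 kPa), all below every WT library (-1.78, SE 0.04, adjusted p = 7.03e-17). On the soft gel the differences of LATS1/2-dKO and YAP/TAZ-dKO from WT were 1.02 and -1.40, and on the stiff gel 0.59 and -2.16.

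The stiffness response of CLU also depended on the line. In WT and RAP2A/B/C-tKO the stiff-gel libraries lay above the soft-gel ones without overlap, by 0.22 and 0.14, neither of which was called (adjusted p = 0.0829 and 0.172). In LATS1/2-dKO they lay below without overlap (-0.22, adjusted p = 0.0957), and in YAP/TAZ-dKO CLU fell with stiffness (-0.54, SE 0.06, adjusted p = 8.01e-05). The response in YAP/TAZ-dKO less that in WT was -0.76 (SE 0.08, adjusted p = 5.26e-05), the single member called among the 3 comparisons of responses (1 of 42, against 0.392% of all genes, 0.259% higher and 0.133% lower). For LATS1/2-dKO it was -0.44 (95% interval -0.61 to -0.27, adjusted p = 0.0513), with 0 of 42 members called against 0.0632% of all genes (0.019% higher and 0.0442% lower) and 6 members at an unadjusted p under 0.05. For RAP2A/B/C-tKO it was -0.08, with 0 of 42 called against 0.0505% (0.0126% higher and 0.0379% lower) and 3 at an unadjusted p under 0.05. The calls of CLU in YAP/TAZ-dKO held in every setting tried.

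Beside the 42 genes, 6 lists of other genes of these pathways were read in the same fits, where 50.6% of all genes were called in YAP/TAZ-dKO, 33.9% in LATS1/2-dKO and 16% in RAP2A/B/C-tKO. Of 20 cytosolic co-chaperones and further heat shock proteins tested of 23 listed, 3 were higher and 9 lower in YAP/TAZ-dKO, 7 higher and 1 lower in LATS1/2-dKO, and 4 higher and 2 lower in RAP2A/B/C-tKO (12, 8 and 6 of 20 called). HSPB8, a small heat shock protein that acts with BAG3, went from 5.996 ± 0.506 and 5.54 ± 0.310 FPKM in WT to 0.292 ± 0.0987 and 0.251 ± 0.0935 in YAP/TAZ-dKO (-2.41, adjusted p = 8.55e-17), and was higher than WT in RAP2A/B/C-tKO and LATS1/2-dKO (0.66 and 0.76). BAG1, an exchange factor for HSP70, and CHORDC1, an HSP90 co-chaperone, were also lower in YAP/TAZ-dKO than in WT (-0.88 and -0.60, adjusted p = 3.09e-14 and 1.42e-08). CRYAB, alpha-B crystallin, was at 0.649 ± 0.200 and 1.21 ± 0.253 FPKM in LATS1/2-dKO and 0.0708 ± 0.0628 and 0.0334 ± 0.0579 in WT. It passed the filter through 3 LATS1/2-dKO libraries alone, so its difference of 0.85 is given with no test. The 7 genes of its list counted as higher in LATS1/2-dKO include it. Of the 8 subunits of the cytosolic chaperonin TRiC, 4 were higher and 0 lower in RAP2A/B/C-tKO, 3 and 0 in LATS1/2-dKO, and 1 and 3 in YAP/TAZ-dKO. CCT8 had 277 ± 3.86 and 296 ± 31.4 FPKM in LATS1/2-dKO and 197 ± 2.05 and 195 ± 4.77 in wild-type cells (0.54, adjusted p = 1.67e-07). In YAP/TAZ-dKO CCT5 and CCT2 were lower (-0.32 and -0.27) and CCT3 was higher (0.16).

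Of 17 other ER folding genes, 2 were higher and 7 lower in YAP/TAZ-dKO, 4 and 2 in LATS1/2-dKO, and 2 and 2 in RAP2A/B/C-tKO. These are 9, 6 and 4 calls of 17, against 50.6%, 33.9% and 16% of all genes called. The collagen chaperone SERPINH1 went from 82.2 ± 3.17 and 92.8 ± 1.48 FPKM in WT to 47.9 ± 1.96 and 56.5 ± 0.515 in YAP/TAZ-dKO (-0.74, adjusted p = 4.68e-09), and ERP44, which retains proteins in the ER, was lower as well (-0.50, adjusted p = 4.45e-10). CNPY2 was lower (-0.27) and the prolyl isomerase PPIB higher (0.20). PPIB also rose with stiffness in WT (0.21, adjusted p = 0.0107), the single gene of that list called there. Of 21 genes of ER translocation and degradation, 9 were higher and 6 lower in YAP/TAZ-dKO, 6 and 5 in LATS1/2-dKO, and 5 and 3 in RAP2A/B/C-tKO. The translocon genes SEC61A1, SEC62 and SSR3 were among those lower in YAP/TAZ-dKO (-0.67, -0.78 and -0.87), SEC61A1 going from 202 ± 5.10 and 214 ± 8.40 FPKM to 129.8 ± 3.90 and 131 ± 5.49. The ubiquitin-conjugating enzyme UBE2G2 was higher in LATS1/2-dKO and in YAP/TAZ-dKO (0.48 and 0.44, adjusted p = 7.68e-10 and 1.13e-09).

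Of 11 other regulators of the unfolded protein response, 3 were higher and 3 lower in YAP/TAZ-dKO, 1 and 4 in LATS1/2-dKO, and 3 and 1 in RAP2A/B/C-tKO (6, 5 and 4 of 11, against 50.6%, 33.9% and 16% of all genes). With stiffness 0 rose, and 1, 2, 1 and 2 fell in the WT, the RAP2A/B/C-tKO, the LATS1/2-dKO and the YAP/TAZ-dKO cells, against 0.663%, 2.88%, 0.619% and 0.227% of all genes called lower. PPP1R15A (GADD34), which restores translation after stress, fell with stiffness from 15.5 ± 0.471 to 10.4 ± 0.381 FPKM in YAP/TAZ-dKO (-0.53, adjusted p = 8.27e-04) and from 27.2 ± 0.465 to 21.7 ± 2.51 in LATS1/2-dKO (-0.32, adjusted p = 0.0427). In WT it had 19.5 ± 0.849 and 19.8 ± 1.09 FPKM, and the response in YAP/TAZ-dKO differed from that in WT (-0.55, adjusted p = 0.012). Averaged over the gels, PPP1R15A was lower in YAP/TAZ-dKO than in WT (-0.59, adjusted p = 1.16e-08). DDIT3 (CHOP), a stress-induced transcription factor, fell with stiffness in WT and RAP2A/B/C-tKO (-0.39 and -0.51, adjusted p = 0.0135 and 9.14e-04). ATF4, the transcription factor downstream of PERK, was lower in LATS1/2-dKO than in WT (-0.21, adjusted p = 1.79e-05). With stiffness ATF4 fell in YAP/TAZ-dKO from 279 ± 4.22 to 229 ± 2.92 FPKM (-0.28, adjusted p = 0.00241), and in RAP2A/B/C-tKO (-0.15, adjusted p = 0.0479). MBTPS1 and MBTPS2, the proteases that cleave ATF6, were higher in YAP/TAZ-dKO (0.29 and 0.39, adjusted p = 4.33e-05 and 1.09e-07). Of 9 other mitochondrial chaperones and proteases, 4 were higher and 0 lower in LATS1/2-dKO, among them TRAP1, the mitochondrial HSP90, CLPX and GRPEL1 (0.24, 0.27 and 0.21). In YAP/TAZ-dKO 2 were higher and 3 lower, HSCB among the latter (-0.47, adjusted p = 5.08e-06), and in RAP2A/B/C-tKO 0 were called, with 1 at an unadjusted p under 0.05 (limma).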

How the data were processed

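Poly(A) RNA of 24 libraries was measured by RNA-seq. The authors deposited 1 table of FPKM values per library, with confidence limits. STAR 2.4.2a, Cufflinks 2.2.1 and the build hg19 are named in the submitters' processing notes. A stranded kit with index set A or B was used, per the labels' protocols, with no record of which library had which set. The tables hold no read counts, so precision was taken from the deposited limits and the spread of 3 libraries a group.

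Each table has 60350 entries. Symbols on several entries (338) were summed, and 92 were left out for a deposited status other than OK or LOWDATA in any library. Genes at or above 1 FPKM in at least 3 libraries (15828) were analysed as log2(FPKM + 1), which understates changes of low genes, with limma 3.58.1 (R 4.3.3; trend on, 1 mean per group, 16 residual degrees of freedom) in 10 contrasts, each adjusted over all genes by the Benjamini-Hochberg method and called below 0.05. The fitting code was tested on simulated data. Alternatives were a pseudocount of 0.1, no filter, another scaling, a replicate block, HSPA1A and HSPA1B summed, fits of the compared libraries alone, leaving out each library, and leaving out both libraries that ran with GC content. GC was known for 85.3% of genes. Promoters were searched with Python 3.11.15, and the HSPA1 copies were aligned with Biopython 1.88.

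The members, lists and rules were chosen with earlier results of these data known. Library values are given for members called with a log2 difference of at least 0.4 either way and a group mean of at least 5 FPKM, and for HSPA5, HSPA1A, HSPA1B and XBP1. Of each other list up to 4 called genes are named, smallest adjusted p first. The library values of PDIA4, and DDIT3 and the further contrasts of listed genes, were added after their values were seen.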

Additional observations from a re-analysis of the deposited data

Results flagged for a closer look

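The stiffness response of CLU differed between lines by the test of the difference itself: the log2 difference between stiff and soft gel in YAP/TAZ-dKO less that in WT was -0.76 (limma, adjusted p = 5.26e-05, 3 libraries a group). All 3 stiff-gel libraries lay below the soft-gel ones in YAP/TAZ-dKO and above them in WT.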

How the results depend on the processing

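No called difference turned its direction in any alternative, and 51 of the 71 calls of members held in all of them, with 29 of 29 for YAP/TAZ-dKO against WT, 14 of 19 for LATS1/2-dKO and 6 of 15 for RAP2A/B/C-tKO, each including HSPA1A, which passed the filter through WT alone. Of the 7 stiffness calls only that of CLU in YAP/TAZ-dKO held. Members called with stiffness in WT (3 as reported) were 5 after scaling libraries to a common median ratio, 1 with the compared libraries alone and 12 without both libraries that ran with GC content. In RAP2A/B/C-tKO (2) they were 8, 0 and 6, and 1 without the filter. In LATS1/2-dKO (1) they were 2, 0 and 2, and in YAP/TAZ-dKO (1) 3 without both libraries. For RAP2A/B/C-tKO against WT (15) they were 8 without the filter and 8 with the compared libraries alone. For the stiffness response of LATS1/2-dKO against WT (0) they were 1 after scaling and 2 without both libraries, and for that of YAP/TAZ-dKO (1) 4 without both. The cause was not tested.

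Without 1 library at a time, the stiffness counts ran from 0 to 3 in WT, 1 to 8 in RAP2A/B/C-tKO, 0 to 2 in LATS1/2-dKO and 1 to 1 in YAP/TAZ-dKO (all genes 46 to 105, 258 to 1141, 17 to 255 and 29 to 43). The line counts ran from 9 to 16, 14 to 24 and 29 to 29 (all genes 2077 to 2958, 4818 to 5437 and 7504 to 7610), and those of the responses from 0 to 0, 0 to 1 and 1 to 1 (all genes 5 to 12, 7 to 64 and 40 to 53). Same-numbered replicates deviated with correlations of -0.0681 to 0.0835, so the numbers were not taken as pairs. With the replicate block, 1 member was called in RAP2A/B/C-tKO and 0 in LATS1/2-dKO with stiffness.

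Over all genes, stiffness calls without both libraries were 1010 in WT (156 as reported), 795 in RAP2A/B/C-tKO (612), 479 in LATS1/2-dKO (112) and 388 in YAP/TAZ-dKO (55). Those against WT were 4370 (2528) for RAP2A/B/C-tKO, 6729 (5364) for LATS1/2-dKO and 9690 (8008) for YAP/TAZ-dKO, and those of the responses 20, 211 and 412 (8, 10 and 62). With the compared libraries alone the stiffness calls were 66, 9, 3 and 134. Scaling moved higher and lower calls from 51 and 105 to 99 and 84 in WT, from 156 and 456 to 305 and 341 in RAP2A/B/C-tKO, from 14 and 98 to 15 and 36 in LATS1/2-dKO, from 19 and 36 to 27 and 38 in YAP/TAZ-dKO, and for the response of YAP/TAZ-dKO from 41 and 21 to 40 and 34, and of LATS1/2-dKO from 3 and 7 to 4 and 16.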
